A study of Mus musculus with 6 samples.

Results

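Glycolysis and the hypoxia response were followed through 32 genes in single-cell RNA libraries of mouse retinal cultures. These held Müller glia, which span the retina and support its neurons, among other cell types. The 32 genes were chosen by symbol, with earlier results of these data known. All were found among the 27998 genes of the raw UMI matrices (a UMI, or unique molecular identifier, marks 1 captured RNA molecule). They comprise 3 hexokinases, 8 genes of upper glycolysis, 6 of lower glycolysis, 4 that decide between lactate and mitochondrial use of pyruvate, 3 glucose or lactate transporters, 3 genes of oxygen sensing and 5 outputs of the hypoxia response. Retinas had been dissociated with papain and grown with serum, N2 supplement and EGF, and the cultures were then transfected by lipid reagent with each RNA at 500 nM. The 6 libraries, 1 for each treatment, were an antagomiR that blocks let-7, a mimic of miR-25, a mimic of miR-124, a double combination (antagomiR plus miR-25), a triple combination (the double plus miR-124) and control RNAs. The sources used here give no strain or age. With 1 library a treatment, no difference below has a replicate check, no test between treatments was made, and each 95% interval covers counting error only.

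Glycolysis splits glucose into pyruvate through a chain of cytosolic enzymes, starting with the trapping of glucose by hexokinase and ending with pyruvate kinase. Müller glia are known as strongly glycolytic cells that release lactate to the neurons they wrap. In low oxygen the transcription factor subunit HIF1A escapes hydroxylation by the Egln enzymes, pairs with ARNT and binds the core sequence ACGTG near many glycolytic genes. HIF1A is regulated largely through protein stability, which RNA counts do not show.

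The matrices held 11804176 to 23124374 UMIs a library, and 2721 to 5158 cells a library were kept. Of the double combination, 3014 of the 5141 listed barcodes could be read. Müller-like cells numbered 1614 with let-7 antagomiR, 3110 under miR-25 mimic, 1275 labelled miR-124 mimic, 1389 in the double combination, 2291 labelled triple combination and 1360 in the control, with median depths of 2640 to 5600 UMIs. They were 52.7% of kept cells with let-7 antagomiR, 60.3% under miR-25 mimic and 36.6% labelled miR-124 mimic. In the double combination they were 51%, labelled triple combination 56.2% and in the control 30.1%. Mesenchymal-like cells were 48.1% of the control and 21.7% to 35.3% of the treated libraries. The Müller-like cells fell into 3 clusters led by Lcn2, Grem1 and Rlbp1. The Rlbp1-led cluster held 1709 Müller-like cells labelled triple combination and 677 labelled miR-124 mimic, against 3 to 20 in each other library, so these 2 libraries are compared with the rest across different cells. Pairs of libraries shared 9 to 30 cell barcodes. The cells carried their defining markers: Rlbp1, a retinoid carrier, was at 53 to 561 CPM (UMI counts scaled to the summed UMIs of the class in the library) and Glul, glutamine synthetase, at 99.9 to 771 CPM. Genes with miRNA sites went against part of the labels of 2 libraries, which are therefore named as labelled throughout. Genes with a let-7 site stood 0.061 above other genes (mean log2 ratio to control, adjusted for level, UTR length and GC content) with let-7 antagomiR and 0.078 above in the double combination, but 0.074 above in the library labelled miR-124 mimic, which should hold no antagomiR, and -0.0021 in the library labelled triple combination, which should hold it. Unadjusted differences of medians were 0.028 with let-7 antagomiR, 0.0082 in the double combination, 0.11 labelled miR-124 mimic and 0.039 labelled triple combination. For let-7, the library labelled triple combination thus lacked a shift above other genes in the adjusted value alone. Genes with a miR-25 site stood at -0.091 with miR-25 mimic and -0.1 in the double combination, but at 0.032 in the library labelled triple combination, and the unadjusted differences had the same signs (-0.1 with miR-25 mimic, -0.15 in the double combination and 0.046 labelled triple combination). No replicate spread stands behind these values. In the libraries labelled miR-124 mimic and triple combination, shifts of genes with sites cannot be told apart from the different cell makeup.

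The miRNAs that the RNAs mimic or inhibit are shown because their seeds define which members could carry a site (RefSeq, mature sequences, seed bases 2 to 8 in capitals). The 9 let-7 family names with a sequence share 1 seed. No label states which arm was used, so the 3p arm of miR-25 was assumed; miR-124 sites were not analysed here.
let-7a-5p: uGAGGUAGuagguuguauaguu
let-7g-5p: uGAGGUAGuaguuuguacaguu
miR-25-3p: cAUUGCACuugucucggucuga

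Sites of at least 7 bases were looked for in the longest annotated 3′ UTR of each gene (GENCODE vM21, GRCm38, mouse). A site paired with seed bases 2 to 8, or with bases 2 to 7 and had an A after them. Those of Hk2, Pkm, Ldha and Hif1a were of the second kind only. A let-7 site stood in 4 of the 32 members (Hk2, Hkdc1, Aldoc and Slc2a3), against 17.7% of the 8273 genes measured in Müller-like cells with such a UTR. A miR-25 site stood in 6 of the 32 (Pgam1, Pkm, Ldha, Hif1a, Egln3 and Adm), against 15.8%. Sites are shown in capitals, in mRNA sense with T for U. Those of Aldoc, Hkdc1, Hk2 and Pkm are given because these members passed 1.5-fold in some of the 8 comparisons made between libraries. Pgam1 passed in none of the 8 and has the only 8-base miR-25 site among the members. In Müller-like cells Pgam1 was at 411 CPM with let-7 antagomiR and 241 CPM with miR-25 mimic, a pair not among these comparisons. A match is a description, not a shown site of action.
Aldoc, let-7, chr11:78326800-78326806, plus strand: cataccaaagtCTACCTCcatgtgtgcga
Hkdc1, let-7, chr10:62383506-62383512, minus strand: caggccttatgCTACCTCtggtgggagat
Hk2, let-7, the first of 2 sites, chr6:82726746-82726752, minus strand: gtctgtggcttTACCTCAcacggctgaac
Pkm, miR-25, chr9:59678982-59678988, plus strand: cctctaaaacaTGCAATAgagaccagcta
Pgam1, miR-25, chr19:41918653-41918660, plus strand: aaaggagtgatGTGCAATA

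The HIF core ACGTG was searched on both strands from 250 bases before to 50 after each RefSeq start, so CACGTG counts on both strands. It stood in at least 1 promoter of 19 of the 30 members with a listed promoter (63.3%), against 30.9% of genes with a mean of at least 10 CPM in Müller-like cells and 21.8% of all genes. A gene with more listed promoters has more chances to hold it. Counted by promoter, it stood in 22 of 44 of the members (50%), against 19.6% of all 32851 promoters. The promoters of Aldoc, highest in the library labelled triple combination, of Slc2a1, highest in the double combination, and of Ldha, which held most copies, are shown with the core in capitals (RefSeq, GRCm38.p6); these 3 were chosen after their values were seen. None of the 3 listed promoters of Eno1 held these letters.
Aldoc, chr11:78322823-78323122, plus strand: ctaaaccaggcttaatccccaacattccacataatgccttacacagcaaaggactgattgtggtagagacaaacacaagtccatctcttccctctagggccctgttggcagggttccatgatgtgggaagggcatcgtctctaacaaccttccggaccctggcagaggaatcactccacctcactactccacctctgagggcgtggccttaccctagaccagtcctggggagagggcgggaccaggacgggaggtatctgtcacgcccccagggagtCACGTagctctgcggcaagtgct
Slc2a1, chr4:119108495-119108794, plus strand: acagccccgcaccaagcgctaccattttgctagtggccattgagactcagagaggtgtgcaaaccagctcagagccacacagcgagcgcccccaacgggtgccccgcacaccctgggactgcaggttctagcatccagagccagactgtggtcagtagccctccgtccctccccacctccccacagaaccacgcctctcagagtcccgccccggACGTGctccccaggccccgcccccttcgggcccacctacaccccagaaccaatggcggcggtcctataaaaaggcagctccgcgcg
Ldha, chr7:46845554-46845853, plus strand: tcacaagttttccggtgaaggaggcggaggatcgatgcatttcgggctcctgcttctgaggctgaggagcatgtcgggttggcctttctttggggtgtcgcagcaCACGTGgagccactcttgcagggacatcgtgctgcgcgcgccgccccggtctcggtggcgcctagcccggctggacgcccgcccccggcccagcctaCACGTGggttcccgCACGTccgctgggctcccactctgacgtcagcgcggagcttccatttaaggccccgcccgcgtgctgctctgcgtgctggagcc

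In Müller-like cells the summed level of the glycolytic enzymes was highest in the library labelled triple combination, but not each enzyme was. Hk2, Gapdh and Ldha were highest in the double combination, Pgk1 with miR-25 mimic and Pgam1 with let-7 antagomiR. Much of the sum was Eno1, at 1868 CPM labelled triple combination and 494 CPM in the control. Aldoc was at 386 and 44 CPM in the same libraries. The summed level of the enzymes and lactate dehydrogenases was 3066 CPM with let-7 antagomiR, 3075 under miR-25 mimic, 3598 labelled miR-124 mimic, 3079 in the double combination, 5388 labelled triple combination and 2913 in the control. Of the 32 members, 23 had a mean of at least 10 CPM over the 6 libraries and entered counts of differences. Of these 23, 13 were highest in the library labelled triple combination, where 29.7% of all 8422 genes measured were highest, and 8 were lowest in the double combination, where 28.6% of all were lowest; both counts were chosen after the values were seen. The 9 members under that level were Pdk4, Slc16a3, Egln3, Vegfa, Ankrd37, Eno2, Pdk1, Slc2a3 and Adm.

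**Figure D1:**
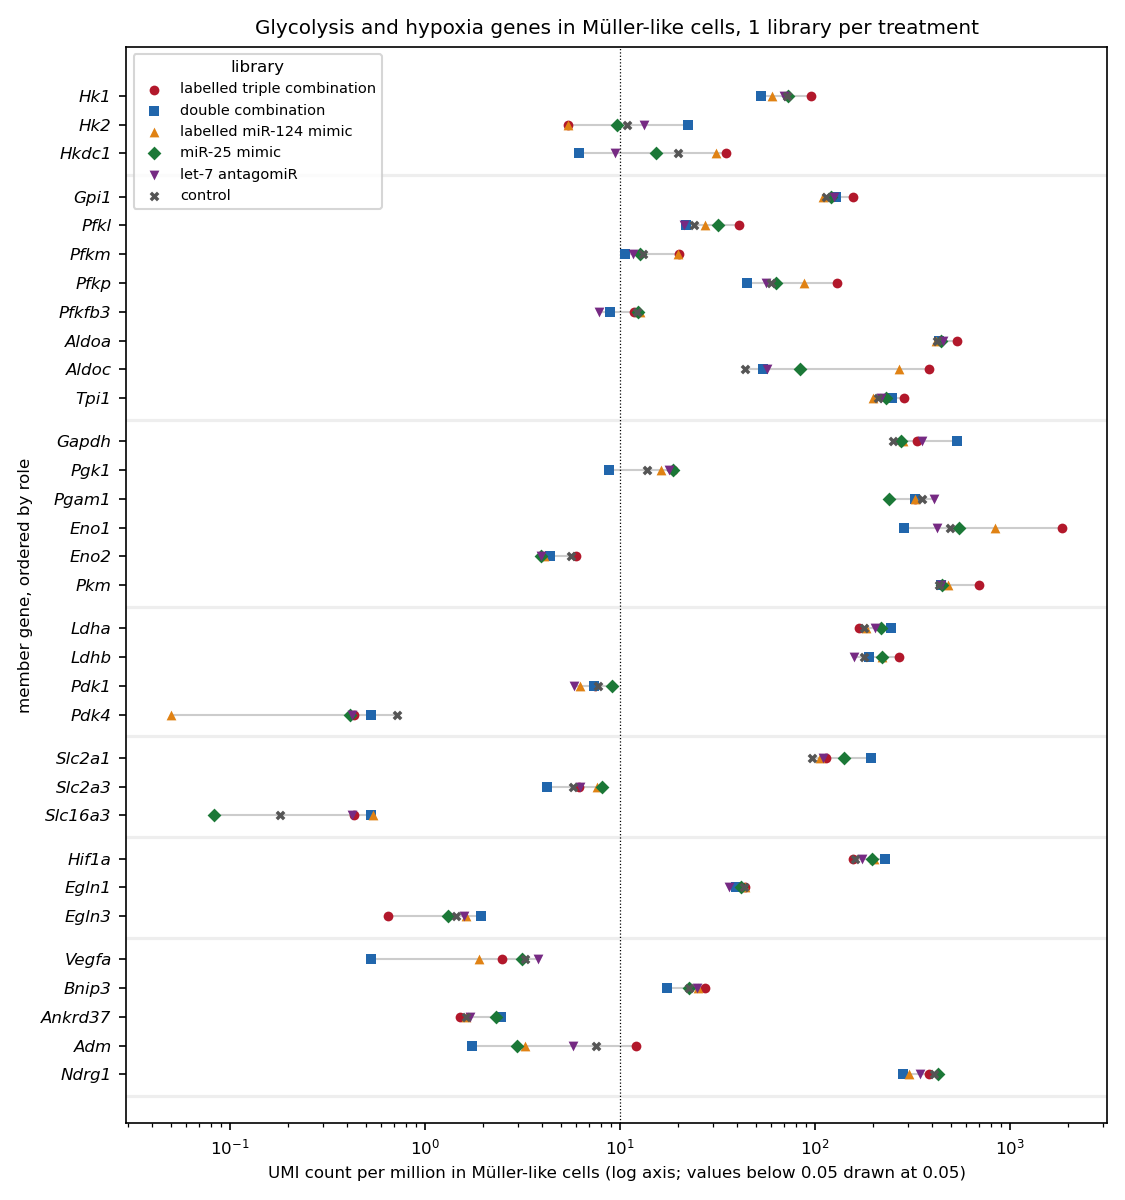
Levels in CPM (log axis) of the 32 member genes in Müller-like cells, ordered by role, with a point for each of the 6 libraries and a dotted line at a mean of 10 CPM. Eno1 and Aldoc reach 1868 and 386 CPM in the library labelled triple combination, and Gapdh and Slc2a1 reach 540 and 195 CPM in the double combination.

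The hexokinases, which trap glucose in the cell, were highest in different libraries. Hk2, the inducible hexokinase and a HIF target, was at 13.4 CPM with let-7 antagomiR, 9.69 under miR-25 mimic, 5.45 labelled miR-124 mimic, 22.4 in the double combination, 5.42 labelled triple combination and 10.9 in the control. Hkdc1, a low-activity hexokinase-like protein, was at 35 CPM labelled triple combination, 6.17 in the double combination, 31.4 labelled miR-124 mimic, 15.3 with miR-25 mimic and 9.49 with let-7 antagomiR, against 19.9 in the control. Hk2 was thus highest and Hkdc1 lowest in the double combination, while Hkdc1 was highest and Hk2 lowest in the library labelled triple combination. Hk1, the housekeeping hexokinase that sits on mitochondria, ranged less, between 53.4 CPM in the double combination and 95.7 CPM labelled triple combination, with 72.5 CPM in the control.

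In upper glycolysis Aldoc, the aldolase typical of astrocytes and Müller glia, spread most. It was at 57 CPM with let-7 antagomiR, 84.2 under miR-25 mimic, 270 labelled miR-124 mimic, 54.6 in the double combination, 386 labelled triple combination and 44 in the control. Both libraries labelled as holding miR-124 thus stood apart in Aldoc, while its paralog Aldoa, the general aldolase, stayed between 418 and 535 CPM. Of the phosphofructokinase subunits, which gate entry to the pathway, Pfkp was at 130 CPM labelled triple combination, 44.8 in the double combination, 88.3 labelled miR-124 mimic, 63.1 with miR-25 mimic and 56.7 with let-7 antagomiR, against 60.1 in the control. Pfkl was at 41.1 CPM labelled triple combination and between 21.3 and 32 CPM elsewhere, and Pfkm at 19.9 and 20.1 CPM labelled miR-124 mimic and triple combination and between 10.7 and 13.2 CPM elsewhere. All 3 subunits were highest in the library labelled triple combination. Pfkfb3, which makes the activator of phosphofructokinase, stayed between 7.89 and 12.8 CPM. Gpi1, the glucose phosphate isomerase, stayed between 111 and 158 CPM, and Tpi1, the triose isomerase, between 199 and 289 CPM.

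In lower glycolysis Eno1, the general enolase, and Gapdh, the dehydrogenase that yields NADH, were highest in different libraries. Eno1 was at 427 CPM with let-7 antagomiR, 552 under miR-25 mimic, 847 labelled miR-124 mimic, 288 in the double combination, 1868 labelled triple combination and 494 in the control. Gapdh was at 337 CPM labelled triple combination, 540 in the double combination, 283 labelled miR-124 mimic, 278 with miR-25 mimic and 356 with let-7 antagomiR, against 252 in the control. The double combination held the highest Gapdh and the lowest Eno1, and the library labelled triple combination the highest Eno1. Pkm, pyruvate kinase, was at 696 CPM labelled triple combination and between 437 and 485 CPM elsewhere, so that 1 library lay clear of the others. Pgk1, a phosphoglycerate kinase that yields ATP, was lowest in the double combination at 8.81 CPM and between 13.9 and 18.9 CPM elsewhere. Pgam1, the mutase before enolase, was at 328 CPM labelled triple combination, 329 in the double combination, 326 labelled miR-124 mimic, 241 with miR-25 mimic and 411 with let-7 antagomiR, against 356 in the control. It was lowest with miR-25 mimic and highest with let-7 antagomiR. Eno2, the neuronal enolase, was at 3.94 to 5.96 CPM. Near-identical copies exist for Gapdh, Eno1, Pgk1, Pgam1, Ldha, Aldoa and Tpi1, so their levels are uncertain where reads matched more than 1 copy. The annotated copy Eno1b had 11.8 to 50.2 CPM.

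Lactate dehydrogenase sets the exchange of pyruvate and lactate. Ldha, the muscle-type subunit and a HIF target, was at 204 CPM with let-7 antagomiR, 219 under miR-25 mimic, 183 labelled miR-124 mimic, 246 in the double combination, 169 labelled triple combination and 180 in the control. Ldhb, the heart-type subunit, was at 272 CPM labelled triple combination, 190 in the double combination, 222 labelled miR-124 mimic, 222 with miR-25 mimic and 159 with let-7 antagomiR, against 180 in the control. The library labelled triple combination had the lowest Ldha and the highest Ldhb. Pdk1 and Pdk4, kinases that switch off pyruvate dehydrogenase, were at 5.86 to 9.19 CPM and 0 to 0.724 CPM.

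Slc2a1, the general glucose transporter GLUT1, was at 111 CPM with let-7 antagomiR, 141 under miR-25 mimic, 107 labelled miR-124 mimic, 195 in the double combination, 114 labelled triple combination and 97 in the control. The double combination stood highest in it, as it did in Gapdh. The neuronal transporter Slc2a3 (GLUT3) was at 4.23 to 8.11 CPM, and the lactate exporter Slc16a3 (MCT4) at 0.0828 to 0.545 CPM.

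Of the genes of the oxygen response, Hif1a was at 158 CPM labelled triple combination, 230 in the double combination, 202 labelled miR-124 mimic, 197 with miR-25 mimic and 175 with let-7 antagomiR, against 162 in the control. Egln1, the main oxygen-sensing hydroxylase, was at 36.6 to 44.2 CPM, and Egln3, a hydroxylase induced by HIF, at 0.65 to 1.94 CPM. Ndrg1, a stress- and hypoxia-induced gene, was at 347 CPM with let-7 antagomiR, 430 under miR-25 mimic, 305 labelled miR-124 mimic, 284 in the double combination, 385 labelled triple combination and 411 in the control. Hif1a was highest and Ndrg1 lowest in the double combination. Bnip3, which acts in mitophagy, was at 17.6 to 27.5 CPM. Vegfa, the angiogenic growth factor, was at 0.529 to 3.84 CPM, Ankrd37 at 1.52 to 2.47 CPM, and Adm, the peptide hormone adrenomedullin, at 1.76 to 12.1 CPM. Vegfa, Adm and Bnip3 also had their lowest level in the double combination, at 0.529, 1.76 and 17.6 CPM. Egln3 and Ankrd37 had their highest level there, at 1.94 and 2.47 CPM. Of these, Vegfa, Adm, Egln3 and Ankrd37 had a mean under 10 CPM, so their order rests on few UMIs.

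Against the control, the library labelled triple combination held 6 of the 23 members at least 1.5-fold higher and 1 at least 1.5-fold lower (on the log2 scale of CPM + 5, which understates differences of low genes). Over all 8422 genes measured, 9.62% were that much higher and 7.82% lower, and the median log2 ratio was 0.38 for the members and 0.056 for all. Aldoc was 8.77-fold the control (95% interval 7.7 to 10) and Eno1 3.78-fold (3.63 to 3.94). Pfkp was 2.16-fold (1.91 to 2.45) and Hkdc1 1.76-fold (1.41 to 2.2). Pfkl at 1.71-fold (1.4 to 2.1) and Pkm at 1.59-fold (1.52 to 1.67) were the others higher, and Hk2 at 0.499 (0.336 to 0.739) was the member lower. Ldhb was just short, with a log2 ratio of 0.58. In the Lcn2-led cluster alone, which both libraries hold, 3 members passed, all higher (Aldoc 2.64-fold, 2.18 to 3.2; Eno1 1.92-fold, 1.81 to 2.04; and Gpi1 at a log2 ratio of 0.60), where 2.61% of all genes were higher and 3.15% lower, over genes with a mean of at least 10 CPM in 6 libraries. With that mean taken over the compared pair 4 passed, Adm being added at 2.29-fold (1.34 to 3.96), where 2.73% of all genes were higher and 2.99% lower. There Pfkp, Pkm and Pfkl were at log2 ratios of 0.55, 0.51 and 0.37, and Hkdc1 and Hk2 were at -0.36 and 0.13. Pfkl was at 0.29, Hkdc1 at 0.35 and Hk2 at 0.15 with a stricter cell filter.

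The double combination held 3 of the 23 members at least 1.5-fold higher than the control and 2 lower, where 2.81% of all genes were higher and 4.51% lower. The median log2 ratio was -0.11 for the members and -0.016 for all. Gapdh was 2.14-fold the control (2.01 to 2.28), Hk2 2.06-fold (1.5 to 2.85) and Slc2a1 2.01-fold (1.81 to 2.23). Hkdc1 was at 0.31 of the control (0.206 to 0.457) and Eno1 at 0.582 (0.547 to 0.619). Hif1a at 1.42-fold (1.31 to 1.55) and Ldha at 1.37-fold (1.26 to 1.49) did not reach the fold, nor did Ndrg1 at 0.691 (0.648 to 0.737). Over all kept cells Eno1 was at a log2 ratio of -0.075, Hkdc1 at -0.33 and Hk2 at 0.54. In the Lcn2-led cluster alone Eno1 was at -0.55.

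**Figure D2:**
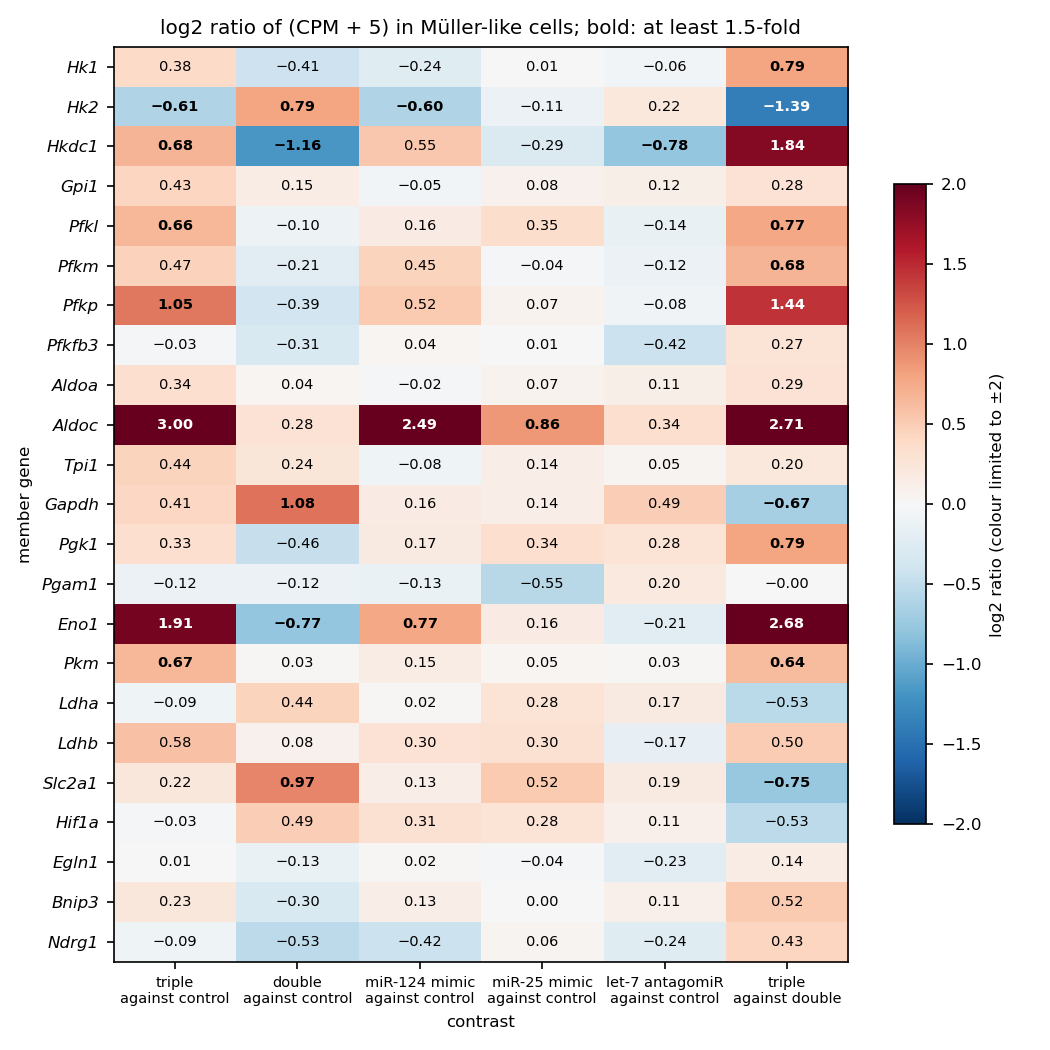
Log2 ratios of CPM + 5 in Müller-like cells for the 23 members with a mean of at least 10 CPM (rows) in 6 contrasts (columns; 5 against the control and the triple-labelled library against the double combination), with colour limited to ±2 and bold figures for at least 1.5-fold. The deepest colours include Aldoc at 3 and Eno1 at 1.91 for the library labelled triple combination against the control.

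Set directly against the double combination, from which it differs by miR-124 mimic according to its label, the library labelled triple combination held 9 of the 23 members higher and 3 lower, where 16.3% of all genes were higher and 11.9% lower. Aldoc was 7.06-fold (6.29 to 7.96), Eno1 6.49-fold (6.17 to 6.84) and Hkdc1 5.67-fold (4 to 8.29). Pfkp, Pgk1, Pfkm, Pfkl, Hk1 and Pkm were the other members higher, at 1.56- to 2.9-fold. Hk2 was at 0.242 (0.171 to 0.338), Slc2a1 at 0.583 (0.535 to 0.635) and Gapdh at 0.625 (0.594 to 0.657). In the Lcn2-led cluster alone Hk2 was at a log2 ratio of -0.56, Gapdh at -0.51, Pkm at 0.52, Pfkl at 0.40, Pfkm at 0.38 and Hkdc1 at 0.585, the edge of the fold, with a ratio of 1.76 (0.998 to 3.19). Over all kept cells Hk1 was at 0.577, short of the fold. In the same cluster Aldoc was 2.33-fold (1.88 to 2.9), Eno1 2.82-fold (2.61 to 3.05) and Slc2a1 0.534 (0.456 to 0.625).

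The library labelled miR-124 mimic held 2 members higher than the control and 1 lower, where 6.86% of all genes were higher and 6.02% lower. Aldoc was 6.15-fold (5.34 to 7.1) and Eno1 1.72-fold (1.63 to 1.81), with Hk2 at 0.502 (0.287 to 0.845). In the Lcn2-led cluster alone Aldoc was 2.92-fold (2.37 to 3.59), Eno1 was at 0.996 (0.917 to 1.08) and Hk2 at 1.15-fold (0.532 to 2.33). In the Grem1-led cluster, with 116 cells against 390 in the control, none of 22 members passed the fold in either direction. There 6.36% of all genes were higher and 7% lower, over genes with a mean of at least 10 CPM in the compared pair. With a stricter cell filter Eno1 was at a log2 ratio of 0.22 and Hk2 at 0.74.

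With each RNA alone few members passed the fold. With let-7 antagomiR 1 member was lower than the control, Hkdc1 at 0.477 (0.356 to 0.636), and none higher, where 0.914% of all genes were higher and 0.665% lower. Over all kept cells Hkdc1 was at a log2 ratio of -0.11. With miR-25 mimic 1 member was higher, Aldoc at 1.92-fold (1.66 to 2.21), and none lower, where 1.26% of all genes were higher and 0.879% lower. Pgam1, which carries the longest miR-25 site among the members, was at 0.677 (0.639 to 0.717), short of the fold on the scale used. In the double combination, which also holds miR-25 mimic, Pgam1 was at 0.922 of the control (0.865 to 0.983).

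Against miR-25 mimic alone the double combination held 2 members higher and 4 lower, where 1.89% of all genes were higher and 3.44% lower. Hk2 was 2.31-fold (1.78 to 3) and Gapdh 1.94-fold (1.85 to 2.04), with Hkdc1 at 0.403, Pgk1 at 0.467, Eno1 at 0.521 and Ndrg1 at 0.662. Over all kept cells Hk2 was at a log2 ratio of 0.44, and Ndrg1 missed the fold under 5 alternatives, at -0.40 to -0.58. Against let-7 antagomiR alone it held 2 members higher and 1 lower, where 2.14% of all genes were higher and 3.88% lower. Slc2a1 was 1.76-fold (1.61 to 1.91), Gapdh 1.51-fold (1.44 to 1.59) and Pgk1 0.492 (0.351 to 0.678). Gapdh lay at the edge of the fold, with log2 ratios of 0.56 to 0.61 over the alternatives, and Pgk1 was at -0.51 over all kept cells. The contrasts of the double combination share that library, so they are not separate observations of it.

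The members differed between the Müller-like clusters within a library, and clusters were formed without the members. Within the library labelled triple combination, Eno1 was at 2234 CPM in Rlbp1-led cells and 1147 CPM in Lcn2-led cells, Aldoc at 497 and 133 CPM, Pfkp at 146 and 92 CPM, and Hkdc1 at 43.9 and 16.8 CPM. Within the library labelled miR-124 mimic, Eno1 was at 1163 CPM in Rlbp1-led cells and 595 CPM in Lcn2-led cells, and Aldoc at 408 and 147 CPM. In both libraries Rlbp1-led cells stood higher. Between the other clusters of the control, Eno1 was at 301 CPM in Grem1-led cells and 598 CPM in Lcn2-led cells, and Ndrg1 at 279 and 484 CPM. Gapdh and Slc2a1 were higher in the double combination in both clusters it shares with the control. Gapdh was at 484 CPM against 232 in the control in Lcn2-led cells and at 576 against 291 in the control in Grem1-led cells. Slc2a1 was at 215 CPM against 110 in the control in Lcn2-led cells and at 182 against 71.7 in the control in Grem1-led cells.

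**Figure D3:**
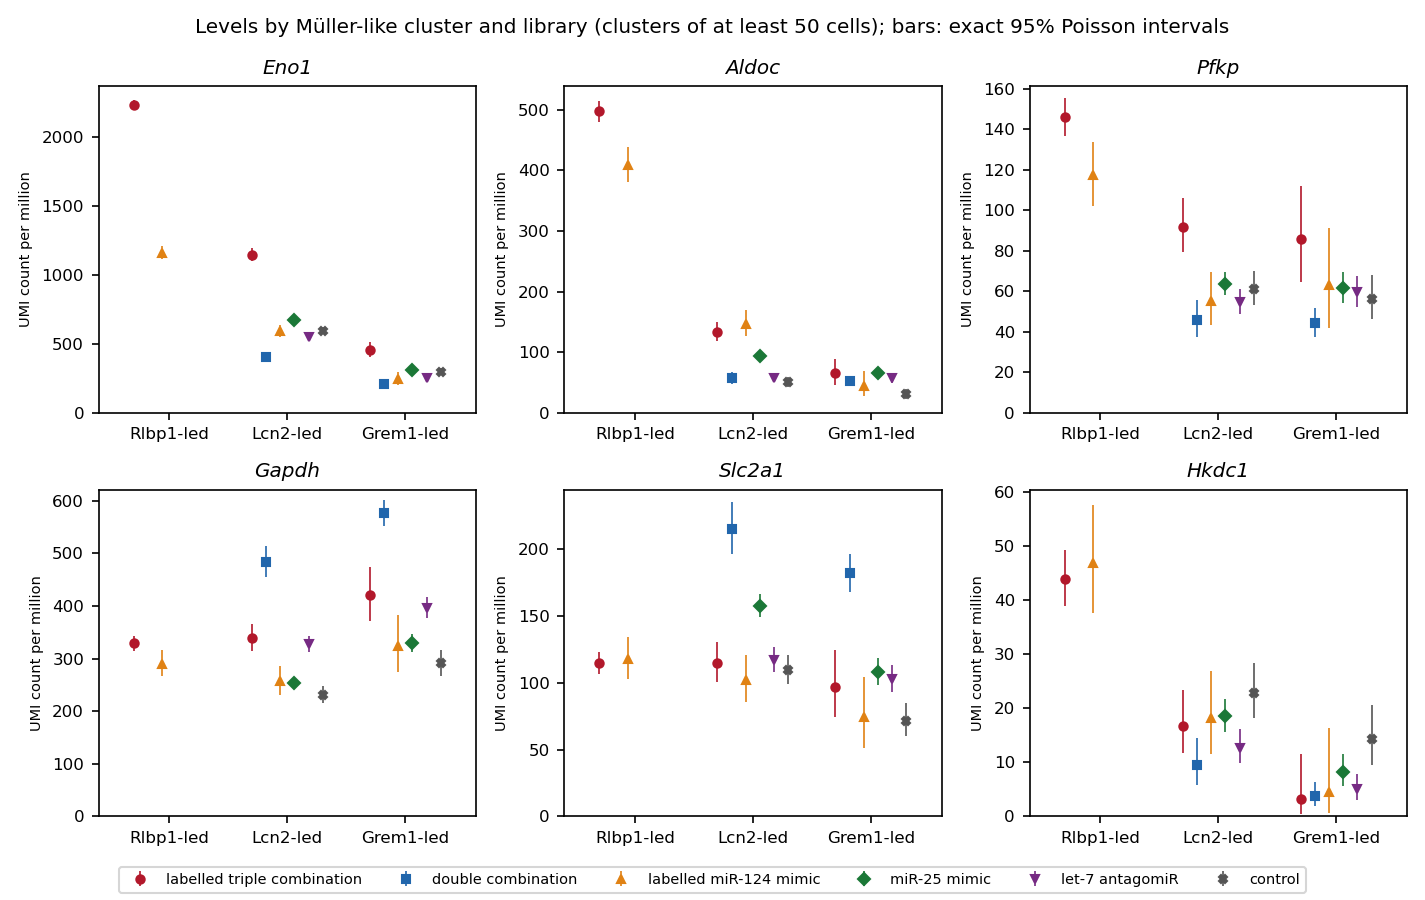
Levels in CPM by Müller-like cluster (Rlbp1-led, Lcn2-led and Grem1-led) and library for members named in the text, in clusters of at least 50 cells, with exact 95% Poisson intervals. Eno1 in the library labelled triple combination stands at 2234, 1147 and 460 CPM in the 3 clusters, against 598 and 301 CPM in the control's Lcn2-led and Grem1-led cells.

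Some marker lists of other cell types moved with these levels in Müller-like cells, and so did the Müller list. The Müller list was at 22927 CPM labelled triple combination, 20336 labelled miR-124 mimic and 11938 in the double combination, against 14479 in the control. The neuron or progenitor list was at 718 to 993 CPM and the mesenchymal list at 230 to 380 CPM. The microglia list was at 28.9 to 45.8 CPM and the pigment list at 11.4 to 15.7 CPM. The summed pericyte and smooth muscle list (9 of 10 genes at 1 CPM or more in some library, mostly Acta2 and Tagln) was at 1184 CPM labelled triple combination and 6136 in the double combination, against 4246 in the control. The pericyte gene Kcnj8 was at 0 in 5 libraries and Rgs5 at 3.52 to 7.91 CPM. The astrocyte list (5 of 6 genes, mostly Gfap) was at 2050 CPM labelled triple combination, 1322 labelled miR-124 mimic and 484 in the double combination, against 690 in the control, while its defining gene Pax2 was at 0.0828 to 0.545 CPM. The endothelial list was at 1050 CPM labelled triple combination and 310 in the double combination, against 439 in the control, nearly all Kdr, with Cdh5 and Cldn5 at 0 in all 6 libraries. Immediate-early RNA summed to 4550 CPM labelled triple combination, 4809 labelled miR-124 mimic and 1992 in the double combination, against 2687 in the control, and mitochondrial RNA was 5.88% to 7.23%. The part of these in the differences was not tested.

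Single cells were also compared at equal depth, thinned to 2000 UMIs. Shallower cells were left out, which kept 2238 of 2291 Müller-like cells labelled triple combination and 1230 of 1389 of the double combination, and 1234 of 1360 control cells. The median Müller-like cell held 6 enzyme UMIs with let-7 antagomiR, 6 under miR-25 mimic, 7 labelled miR-124 mimic, 6 in the double combination, 10 labelled triple combination and 5 in the control. These sums include Eno1 and Aldoc. Aldoc was seen in 46.7% of cells labelled triple combination (95% Clopper-Pearson 44.6% to 48.8%, and 63.5% unthinned), against 8.75% in the control (7.23% to 10.5%, and 14.9% unthinned). In microglia-like cells, a cell type not known for Aldoc, it was seen in 4.12% labelled triple combination (1.13% to 10.2%) and in 0 of 117 control cells (up to 3.1%), at median depths of 6995 and 6362 UMIs. Eno1 was seen in 90.9% of Müller-like cells labelled triple combination (89.7% to 92.1%, and 97% unthinned), against 55.8% in the control (53% to 58.6%, and 73.1% unthinned). Gapdh was seen in 60.9% of Müller-like cells in the double combination (58.1% to 63.6%, and 78.2% unthinned), against 39.3% in the control (36.6% to 42.1%, and 58.9% unthinned).

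**Figure D4:**
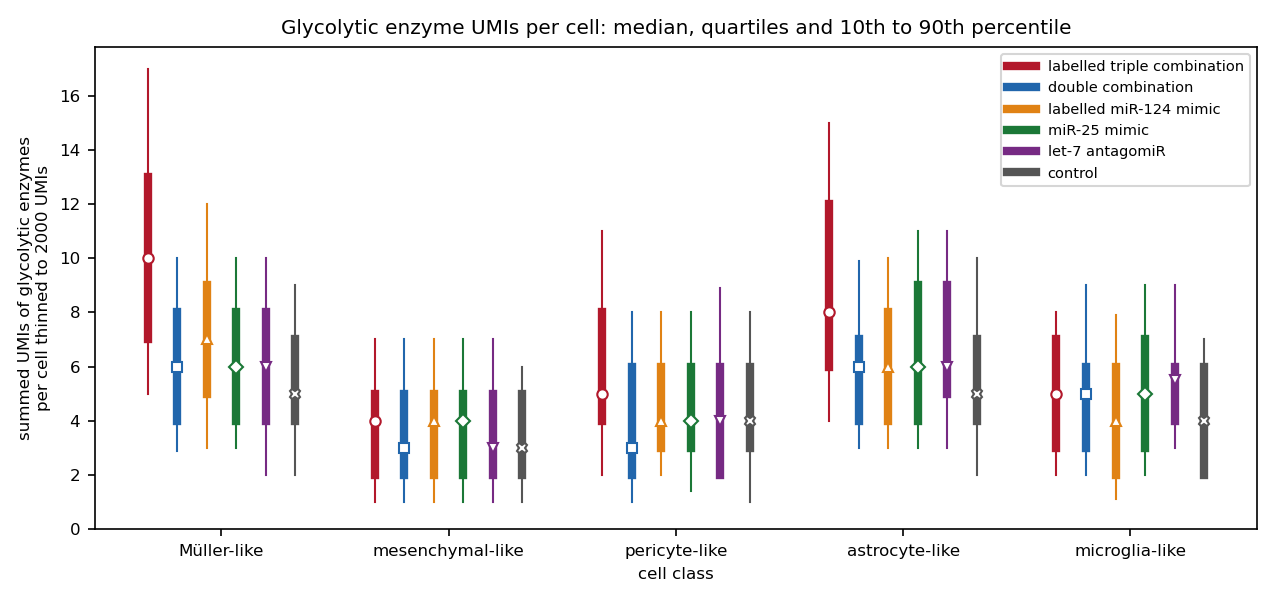
Summed UMIs of glycolytic enzymes and lactate dehydrogenases per cell after thinning each cell to 2000 UMIs, by cell class and library, as the 10th, 25th, 50th, 75th and 90th percentiles. Müller-like cells labelled triple combination have a median of 10 UMIs, against 5 in the control.

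Levels also differed by cell class, which the members did not define. Eno1, Gapdh, Pkm, Slc2a1, Hk1 and Hkdc1 were highest in Müller-like cells in all 6 libraries, among 5 classes (Müller, mesenchymal, pericyte, astrocyte and microglia-like). Some of these orders were close to level with astrocyte-like cells. Pkm with let-7 antagomiR was at 445 CPM against 441 in astrocyte-like cells, and Slc2a1 in the double combination at 195 against 188. Neuron or progenitor-like cells (5 to 189 a library) and pigment-like cells (22 to 76) were left out of these orders and did not all follow them. Pkm was higher in neuron or progenitor-like than in Müller-like cells in every library but that labelled miR-124 mimic (479 against 485 CPM). The control held only 5 such cells. In the library labelled triple combination Pkm was at 804 and 696 CPM. Slc2a1 was higher in pigment-like than in Müller-like cells in every library, at 142 to 292 CPM against 97 to 195 CPM. With miR-25 mimic the pair was nearly level, at 142 and 141 CPM. In the library labelled triple combination Slc2a1 was at 260 and 114 CPM. Hkdc1 was at 19.3 CPM in neuron or progenitor-like cells labelled triple combination and 17.3 CPM in those labelled miR-124 mimic. Ldha was lower in neuron or progenitor-like than in Müller-like cells in every library but the control and that labelled triple combination. With let-7 antagomiR it was at 113 and 204 CPM. Hkdc1 had a median over libraries of 17.6 CPM in Müller-like cells and at most 6.99 CPM in the other 4 of the 5 classes in any library. Ldhb, Tpi1, Hif1a and Ndrg1 were highest in astrocyte-like cells in all 6, where Hif1a had a median of 758 CPM against 186 CPM in Müller-like cells. Vegfa was highest in pericyte-like cells in all 6, at 39.6 to 79.9 CPM, where Slc16a3 was at 14.7 to 32.6 CPM. Ldha was lowest in Müller-like cells in all 6 libraries, at 169 to 246 CPM, against 404 to 547 CPM in pericyte-like cells. Ndrg1 was at 284 to 430 CPM in Müller-like and 522 to 744 CPM in astrocyte-like cells, and at most 69.5 CPM in the other 3 of the 5 classes.

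**Figure D5:**
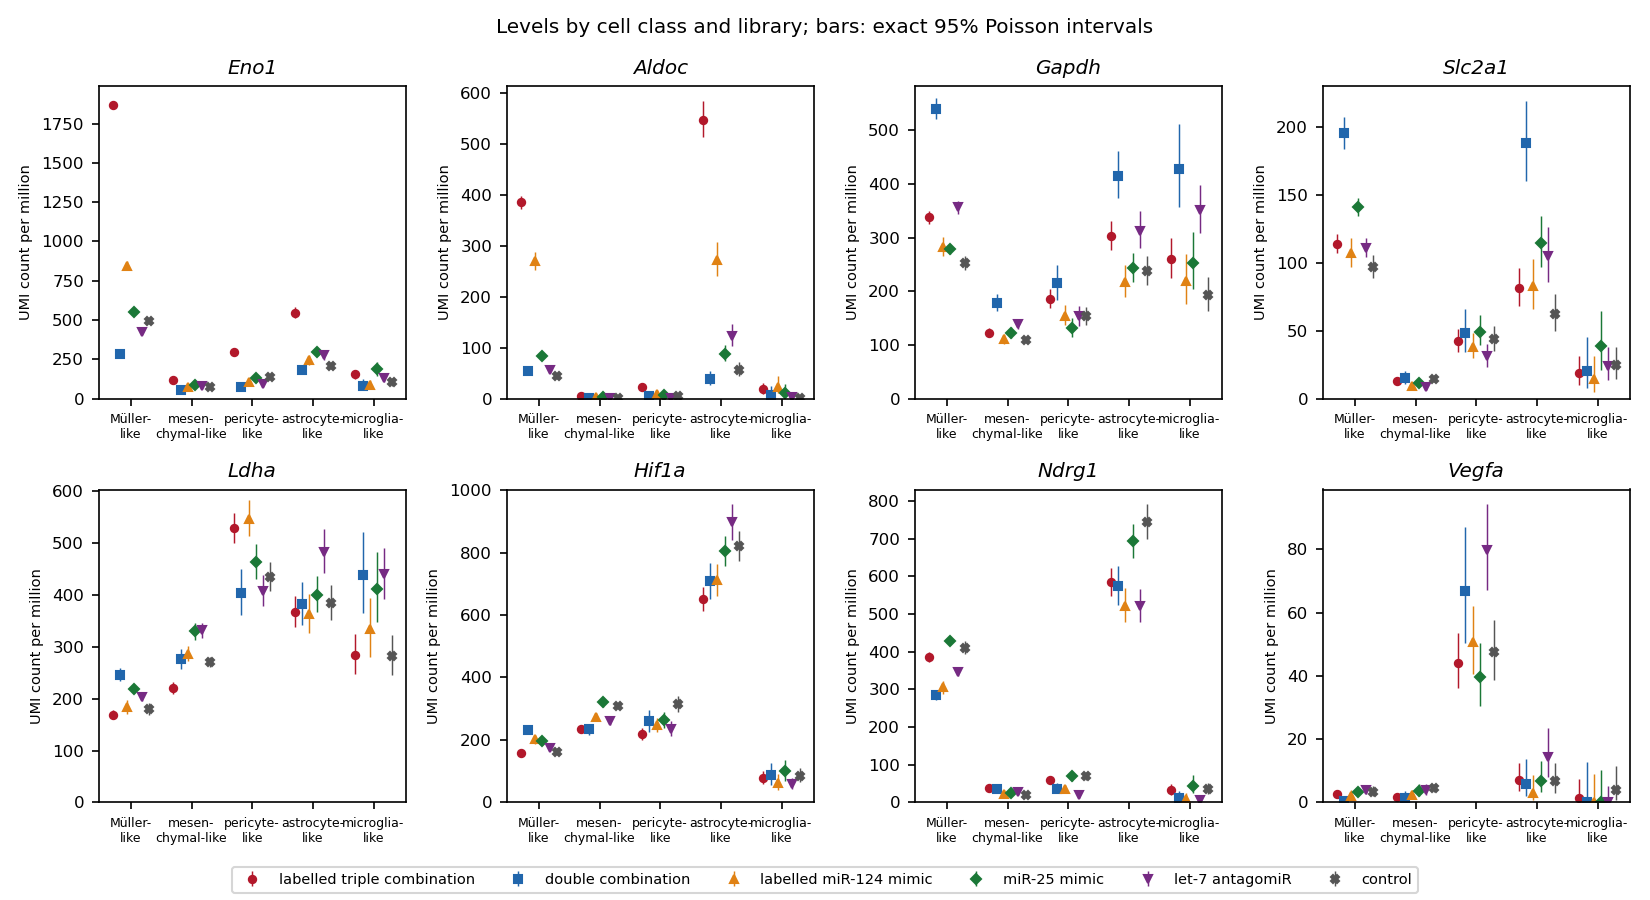
Levels in CPM of selected members in 5 cell classes (Müller, mesenchymal, pericyte, astrocyte and microglia-like) and 6 libraries, linear axes, with exact 95% Poisson intervals. Eno1 is highest in Müller-like cells in every library and Aldoc in the library labelled triple combination stands at 548 CPM in astrocyte-like cells and 386 CPM in Müller-like cells.

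Outside Müller-like cells some of the same genes differed in the library labelled triple combination. Among astrocyte-like cells 6 of 24 measured members were at least 1.5-fold higher than the control and none lower, where 9.81% of all genes were higher and 4.3% lower. Aldoc was at 548 CPM against 57.2 CPM in the control (9.58-fold, 7.6 to 12.2) and Eno1 at 547 against 210 CPM in the control (2.6-fold, 2.28 to 2.98). Among pericyte-like cells 3 of 23 were higher and none lower, where 3.09% of all genes were higher and 1.84% lower, and Adm was at 43.4 CPM against 15 in the control (2.89-fold, 1.93 to 4.43). Among mesenchymal-like cells 3 of 20 were higher and 1 lower, where 2.8% of all genes were higher and 1.96% lower, and Ndrg1 was at 36.8 CPM against 19.1 in the control (1.93-fold, 1.6 to 2.33). Among microglia-like cells 1 of 22 was higher and 3 lower, where 8.12% of all genes were higher and 8.28% lower. Eno1 in the library labelled triple combination was at 295 CPM against 139 in the control in pericyte-like cells, 122 against 75.9 in mesenchymal-like cells and 155 against 106 in microglia-like cells. The Müller gene Rlbp1, set beside it after these values were seen, moved with it: it was at 42.6 CPM against 4.7 in the control in pericyte-like cells, 3.86 against 0.454 in mesenchymal-like cells, 24.2 against 3.88 in microglia-like cells and 67.9 against 3.67 in astrocyte-like cells. Other Müller genes moved unevenly (control second). Apoe, at 8839 against 4034 in Müller-like cells, was at 595 against 298 in pericyte-like cells and 99.4 against 98 in mesenchymal-like cells. Dkk3, at 1965 against 1747 in Müller-like cells, was at 304 against 277 in pericyte-like cells and 76.6 against 109 in microglia-like cells. Glul was at 83.9 against 30.1 in pericyte-like cells and 29.1 against 22 in mesenchymal-like cells. Rlbp1 in the library labelled triple combination was 12.1% of its Müller-like level in astrocyte-like cells, where Aldoc was at 142% of its Müller-like level and Eno1 at 29.3%. In mesenchymal-like cells of that library Rlbp1 was at 0.688% and Eno1 at 6.52% of the Müller-like level. The part of free RNA in these classes was not tested.

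The double combination showed a higher Gapdh than the control in each of these classes, at 178 CPM against 109 CPM in the control in mesenchymal-like cells, 215 against 154 in pericyte-like cells, 415 against 238 in astrocyte-like cells and 428 against 193 in microglia-like cells. Among mesenchymal-like cells 2 of 20 members were at least 1.5-fold higher and 2 lower, where 1.57% of all genes were higher and 2.86% lower. Among astrocyte-like cells 3 of 24 were higher and 2 lower, where 6.02% of all genes were higher and 9.77% lower, with Slc2a1 at 188 against 62.3 CPM in the control (3.01-fold, 2.3 to 3.96). Among pericyte-like cells none of 23 was higher and 2 were lower, where 5.74% of all genes were higher and 6.23% lower. Among microglia-like cells, of which there were 70 against 123, 4 of 22 were higher and 3 lower, where 12.6% of all genes were higher and 21.3% lower.

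Across the 51 points formed by a cluster in a library, which share depth and cell makeup within a library, Aldoc was most like Eno1 among the members (Pearson r of log2 levels 0.892). Hkdc1 (0.889) and Pkm (0.859) were also most like Eno1. Slc2a1 was most like Ndrg1 (0.852), and Hk1 most like Pfkp (0.823). Pfkp and Pfkfb3 ran against each other (-0.722), as did Ldha and Hkdc1 (-0.669). These values are descriptions over points that are not independent.

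Neighbouring pathways gave the setting in Müller-like cells. In the library labelled triple combination against the control, 4 of 13 measured genes of pentose phosphate and glycogen metabolism were at least 1.5-fold higher and 1 lower, where 9.62% of all genes were higher and 7.82% lower. Pygb, which breaks down glycogen, was at 139 CPM against 38.9 in the control. None of 21 respiratory chain genes and 2 of 26 genes of pyruvate dehydrogenase and the citrate cycle were higher, and none of either list was lower. Of 17 other HIF target genes 3 were higher and 7 lower, with Fam162a at 428 CPM against 226 in the control. Of 13 regulators of the HIF pathway 1 was higher and 1 lower: Epas1, the HIF2A subunit, was at 95.9 CPM against 47.4, and Cited2 at 17.2 against 36.5. Of 7 other glycolysis genes 1 was higher, Eno1b at 31 against 17.4 CPM. Of 10 immediate-early genes 6 were higher, and of 5 integrated stress response genes 1 was higher, Psat1 at 102 against 32.4 CPM, and 1 lower, Asns at 8.88 against 16.5 CPM.

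In the double combination against the control none of 13 regulators of the HIF pathway was higher and 2 were lower, where 2.81% of all genes were higher and 4.51% lower, with Epas1 at 21.8 against 47.4 CPM. Of 17 other HIF target genes 2 were higher and 1 lower, with Hmox1, heme oxygenase, at 99.4 CPM against 165 in the control. Hmox1 was below the control in every treated library, at 90 to 122 CPM. Of 21 respiratory chain genes 1 was higher, Cycs at 140 against 73.6 CPM, and 1 lower, Ndufa1 at 147 against 234 CPM. Of 13 genes of pentose phosphate and glycogen metabolism 3 were lower, with Ugp2 at 44 against 79.2 CPM. In the library labelled miR-124 mimic 8 of 10 immediate-early genes and 2 of 13 genes of pentose phosphate and glycogen metabolism were higher than in the control, where 6.86% of all genes were, with Gbe1, the glycogen branching enzyme, at 255 against 103 CPM. With let-7 antagomiR 2 of 17 other HIF target genes were lower, where 0.665% of all genes were, with Lox at 23.9 CPM against 50.7 CPM in the control. With miR-25 mimic 1 was lower, where 0.879% of all genes were, Lox at 23.3 CPM against 50.7 CPM in the control. In the double combination, which holds both RNAs, Lox was at 47.7 CPM, and it was at 25.8 CPM labelled triple combination.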

How the data were processed

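Raw UMI counts per gene and cell were deposited by the authors for 6 libraries made with 10x V2 chemistry, per the labels' protocols. The submitters' processing notes name Cell Ranger 2, Seurat 2 and the mm10 build, but the sources used here give no cell filter. The double combination's matrix ended after 5094879 of 8637523 entries. Barcodes needed 500 genes or more and no more than 10% mitochondrial UMIs. Scrublet marked 0.111% to 3.06% of cells, under 0.5% in the control, miR-25 and triple libraries, so its calls there are not relied on; marked cells were removed, and the 4% with the highest scores were left out as an alternative. Cells of all libraries were clustered together in scanpy 1.11.5 (2000 variable genes, members and pathway lists left out, 30 components, Leiden 0.6) with no integration. Clusters were named "-like" from marker lists: 12, 6 and 17 of 20 Müller markers were at least 2-fold in the Lcn2-, Grem1- and Rlbp1-led clusters, and a cluster of 335 cells with Müller and mesenchymal markers stayed unnamed. Counts were summed per class and library, scaled to CPM, and compared as log2 ratios of CPM + 5 over genes with a mean of at least 10 CPM; called means at least 1.5-fold. The 95% intervals (scipy 1.17.1) are exact: Poisson for levels, conditional for ratios, Clopper-Pearson for shares. They cover counting error only. Ratios were checked on simulated data. Members, lists and markers were chosen with earlier results of these data known. All 32 members are named, and from the pathway lists only genes with the highest or lowest ratio; 1 such gene is not reported here. Alternatives were other scaling, pseudocount, level filter, cell filter, clustering, cell weighting and doublets; 2 more were chosen after seeing the data.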

Additional observations from a re-analysis of the deposited data

Results flagged for a closer look

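No difference between the classes below was tested. In 21 cases a member measured in both classes lay on opposite sides of the library compared with in Müller-like and in mesenchymal-like cells, with both counting intervals off 1. Values are log2 ratios, for Müller-like cells first and mesenchymal-like cells second. With let-7 antagomiR, against the control, Ldhb was at -0.17 and 0.14, Slc2a1 was at 0.19 and -0.57 and Ndrg1 was at -0.24 and 0.39. With miR-25 mimic, against the control, Pgam1 was at -0.55 and 0.44. In the library labelled miR-124 mimic, against the control, Pgam1 was at -0.13 and 0.25 and Hif1a was at 0.31 and -0.17. In the double combination, against the control, Tpi1 was at 0.24 and -0.17, Pgam1 was at -0.12 and 0.44, Hif1a was at 0.49 and -0.39 and Ndrg1 was at -0.53 and 0.73. In the library labelled triple combination, against the control, Pgam1 was at -0.12 and 0.28 and Ndrg1 was at -0.093 and 0.80. In the double combination, against miR-25 mimic alone, Tpi1 was at 0.10 and -0.36, Ldha was at 0.17 and -0.25, Hif1a was at 0.22 and -0.45 and Ndrg1 was at -0.59 and 0.45. In the double combination, against let-7 antagomiR alone, Tpi1 was at 0.18 and -0.19, Pgam1 was at -0.32 and 0.18, Ldha was at 0.27 and -0.26, Hif1a was at 0.39 and -0.15 and Ndrg1 was at -0.28 and 0.34.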

How the results depend on the processing

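Of 38 ratios past 1.5-fold over the 8 contrasts in Müller-like cells, 17 stayed past it under all alternatives run (13 settings), among them Aldoc in all 4 of its contrasts and Slc2a1 in all 3. Settings that change only the level filter leave each ratio as it was, and the smaller pseudocount can only widen it. A ratio past the fold could therefore not fail under those settings. The Grem1-led cluster alone was not among the 13 settings. In 4 ratios the sign turned. Hk2 in the library labelled miR-124 mimic against the control was at 0.74 under a stricter cell filter (1000 genes, 5% mitochondrial UMIs) and at 0.13 in the Lcn2-led cluster alone. Hk2 in the library labelled triple combination against the control was at 0.15 and 0.13 under the same settings. In the Lcn2-led cluster alone Eno1 labelled miR-124 mimic was at -0.006 and Hkdc1 labelled triple combination at -0.36 against the control. Counts of members past the fold moved as follows. With let-7 antagomiR against the control 1 became 3 over all kept cells and 3 with the stricter cell filter. With miR-25 mimic 1 became 2 with median-of-ratios scaling, 2 with no level filter, 6 over all kept cells and 3 with the stricter filter. In the Lcn2-led cluster alone the counts were 1 labelled miR-124 mimic and 3 labelled triple combination, where they had been 3 and 7; with the level filter taken over the compared pair they were 2 and 4 (Slc2a3 and Adm added). In the double combination against let-7 antagomiR 3 became 5 with no level filter, 1 over all kept cells and 5 with the stricter filter. Cells past the stricter filter and the classes mixed in all kept cells differ between libraries; the cause was not tested. Depth limits members under 10 CPM. No paired analysis was possible because each treatment has 1 library.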
